A study of Mus musculus with 6 samples.

Results

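The aminoacyl-tRNA synthetase genes of the mouse were followed in embryonic stem cells that carry either wild-type Trim71 or its R783H form. All rows of the count table whose Entrez identifier belongs to a cytosolic or mitochondrial synthetase were taken, which gave 37 genes of 27179 in the table. Of these, 20 encode cytosolic enzymes and 17 encode mitochondrial enzymes. Ears2 and Pars2, the mitochondrial enzymes for glutamate and proline, were counted as the mitochondrial forms of Eprs, and Mars stands in the symbol table as Mars1. Members were taken by name, and earlier results of these data were known when the group was chosen.

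Poly(A)-selected RNA was sequenced from 3 R783H libraries and 3 wild-type (WT) libraries. Both groups are ES-E14TG2a embryonic stem cells with a FLAG tag on Trim71, a TRIM-NHL protein that binds RNA, and the R783H cells carry in addition an amino-acid change linked to hydrocephalus. All cells grew on gelatin in 2i with Lif, which here means 3 uM CHIR99021, 1 uM PD0325901 and 1000 U/mL mLIF. The same medium held 2% FBS, 2 mM L-glutamine and 0.1 mM non-essential amino acids, so amino acid supply was the same by the labels. No agent or age differs between the groups. Whether replicate letters A, B and C mark separate clones, cultures or library preparations is not given, and the p-values measure the spread between these libraries.

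Aminoacyl-tRNA synthetases attach each amino acid to its tRNA and so supply the ribosome. Cytosolic and mitochondrial protein synthesis mostly use separate sets of enzymes, all encoded in the nucleus, while the genes Gars and Kars serve both compartments. Several cytosolic enzymes sit in a large multi-synthetase complex held by scaffold proteins, and many cytosolic synthetase genes are known targets of ATF4, the transcription factor of the amino acid response.

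Total counts ran from 20894277 to 29079670 per library and were higher in every R783H library than in every WT library. R783H B stood furthest from its group: a chi-square statistic of its counts per degree of freedom was 11.3 against R783H A and 12.3 against R783H C, where the other pairs within a group gave 1.97 to 4.39. As no pair was within sampling noise, the 6 libraries were counted separately, 3 per group. The 8 markers of naive embryonic stem cells summed to 6790 to 6920 CPM (counts scaled to the normalised size of each library) in R783H and 6960 to 7040 CPM in WT. Markers of fibroblasts summed to 2.18 to 3.13 CPM in R783H and 3.28 to 3.86 CPM in WT. Those of primitive endoderm summed to 10.1 to 10.9 CPM in R783H and 4.77 to 6.73 CPM in WT, those of trophoblast to 34.5 to 39.8 and 51.7 to 56.5 CPM, and those of blood cells to 6.82 to 7.75 and 8.48 to 9.26 CPM. Elf5, Ptprc and Hbb-bs had 0 counts in all R783H libraries and at most 2 in any WT library, so the blood cell sum was almost wholly Cd68. Trophoblast markers did not move together, as Cdx2 and Eomes were called lower and Gata3 higher. Nor did the naive markers: Zfp42, Nanog and Pou5f1 were called lower, Dppa5a and Tfcp2l1 higher, and 3 were not called. Of the 5 primitive endoderm markers Gata4 and Sox17 were called higher and 3 were not called. Gata4 made up most of that sum, at a mean of 6.68 CPM in R783H and 3.19 CPM in WT. The part of other cell types in the results was not tested, and in bulk RNA fewer cells of a type and less RNA per cell cannot be told apart. Trim71 mRNA itself had a log2 fold change of 0.03 (SE 0.08) and was not called, while with an offset for transcript length and GC content it was -0.27 and called lower. A count per gene does not show the amino-acid change.

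Of the 37 genes, 23 had an adjusted p under 0.05 in the quasi-likelihood test of edgeR and are referred to as called, 8 higher and 15 lower in R783H. This share of 62.2% stood beside 64.5% of all 14199 tested genes, with 33.5% of them higher and 30.9% lower, so the share of called synthetase genes was near that of genes at large. With the replicate letter as a block, 12 cytosolic and 9 mitochondrial genes were called, beside 65.2% of all tested genes. All 37 passed the filter on low counts, and the lowest count of a member in any library was 169. For 26 members the R783H and WT values in CPM did not overlap (70.3%), against 68.1% of all tested genes. Changes were modest, and Lars2 alone passed 2-fold. The median log2 fold change (R783H over WT) was -0.03 for the cytosolic genes (0.05 when scaled by library size alone) and -0.13 for the mitochondrial genes (-0.05 by library size alone), against 0.03 for all tested genes (0.11 by library size alone). Without R783H B the cytosolic median was -0.11, and with the length and GC offset the medians were -0.10 and -0.18. The median of all tested genes was 0.015 without R783H B and -0.03 with that offset. Summed over the 20 cytosolic genes, the level was 6977 to 7555 CPM in R783H and 7247 to 7644 CPM in WT, and the groups overlapped.

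**Figure D1:**
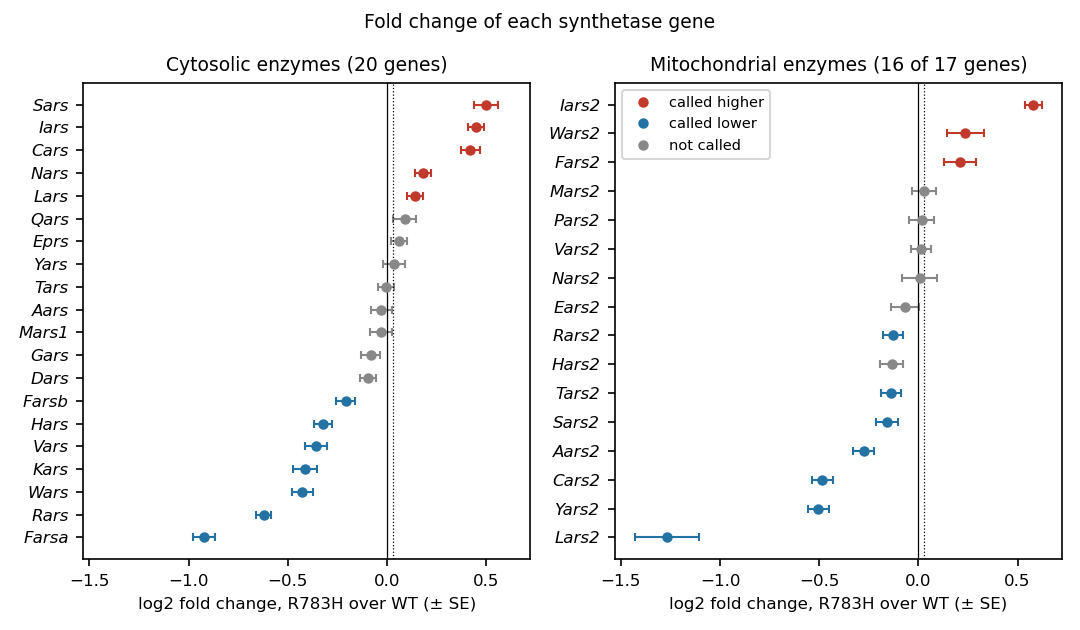
Log2 fold change of R783H over WT on the x axis (bars: SE) for 20 cytosolic (left) and 16 of 17 mitochondrial (right) synthetase genes; red points were called higher, blue points lower and grey points not called, and the dotted line marks the median of all tested genes (0.03). Members spread to both sides of 0, from -0.92 for Farsa to 0.50 for Sars among cytosolic genes and from -1.27 for Lars2 to 0.58 for Iars2 among mitochondrial genes.

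Among the cytosolic genes 5 were called higher (25%) and 7 lower (35%), and 8 were not called. Of all tested genes 33.5% were called higher and 30.9% lower. The genes that rose were Sars, Iars, Cars, Nars and Lars, which load serine, isoleucine, cysteine, asparagine and leucine. Those with a log2 change of at least 0.3 in size were 3 higher and 6 lower, where 26.4% of all tested genes were called higher by that much and 22% lower. Sars stood at 336, 379 and 322 CPM in R783H A, B and C and at 255, 244 and 233 CPM in WT A, B and C. All R783H values lay above all WT values, with R783H B the highest. The log2 fold change was 0.50 (SE 0.06), or 1.41-fold, at an adjusted p of 3.03e-05.

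Iars, the isoleucyl-tRNA synthetase, had 596, 615 and 577 CPM in R783H and 442, 440.5 and 428 CPM in WT. The groups were well apart, and the libraries within each lay close together. Its log2 fold change was 0.45 (SE 0.04) at an adjusted p of 3.41e-06. Cars, the cysteinyl-tRNA synthetase, had 225, 225 and 212 CPM in R783H against 168, 169 and 157 CPM in WT, again without overlap, and changed by 0.42 (SE 0.05) at an adjusted p of 1.35e-05. Nars and Lars rose less, by 0.18 (SE 0.04) and 0.14 (SE 0.04) on the log2 scale. The call of Lars was lost without R783H A (log2 fold change 0.12, adjusted p 0.0567) and with an offset for transcript length and GC content (0.06, adjusted p 0.129).

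The cytosolic genes that fell were Farsa, Rars, Wars, Kars, Vars, Hars and Farsb. Farsa, the catalytic alpha subunit of phenylalanyl-tRNA synthetase, had 142, 161 and 144 CPM in R783H against 295, 282 and 271 CPM in WT. The highest R783H library was far below the lowest WT library. This was the largest cytosolic change, a log2 fold change of -0.92 (SE 0.06) or a level 1.90-fold higher in WT at an adjusted p of 2.24e-07. Rars, which loads arginine, had 161, 165 and 165 CPM in R783H against 251, 254 and 250.3 CPM in WT. Values within each group nearly coincided, and the log2 fold change was -0.62 (SE 0.04) at an adjusted p of 2.89e-07.

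Wars, the tryptophanyl-tRNA synthetase, had 127, 140.4 and 126 CPM in R783H and 182, 180.0 and 168 CPM in WT, which gave a log2 fold change of -0.43 (SE 0.05). Kars, which loads lysine in both compartments, had 570.3, 661 and 571 CPM in R783H against 839.7, 788 and 769.9 CPM in WT. R783H B was the R783H library nearest to WT for both genes, yet the groups did not overlap. The log2 fold change of Kars was -0.41 (SE 0.06) at an adjusted p of 1.27e-04. Vars, the valyl-tRNA synthetase, had 387, 434 and 385 CPM in R783H against 538, 509.8 and 497 CPM in WT, which gave a log2 fold change of -0.36 (SE 0.05). For Hars, which loads histidine, the values were 119.8, 124 and 117 CPM against 152, 153 and 146 CPM, a log2 fold change of -0.32 (SE 0.04). R783H lay below WT in every library for both. The adjusted p of Wars, Vars and Hars was 3.75e-05, 1.51e-04 and 6.82e-05 in that order.

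Phenylalanyl-tRNA synthetase of the cytosol is built from paired alpha and beta subunits, so its genes Farsa and Farsb can be set against each other within a library. Farsb had 190, 209 and 190 CPM in R783H against 228, 228 and 223 CPM in WT, and its log2 fold change was -0.21 (SE 0.05) at an adjusted p of 0.00282. The ratio of Farsa to Farsb counts was 0.748, 0.770 and 0.761 in R783H A, B and C and 1.29, 1.24 and 1.21 in WT. All R783H ratios were below all WT ratios, with means of 0.760 ± 0.0107 and 1.25 ± 0.0416 (SD, n = 3 each). An exact two-sided permutation test of the log ratio gave p = 0.1, the smallest value that 3 against 3 libraries allow. The ratio within a library is independent of the scaling between libraries. Its value is not the proportion of the subunits, since counts grow with transcript length. The end of the Farsb transcript shares 250 nt with Sgpp2 on the opposite strand, whose mean was 1.29 CPM or less in both groups.

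**Figure D2:**
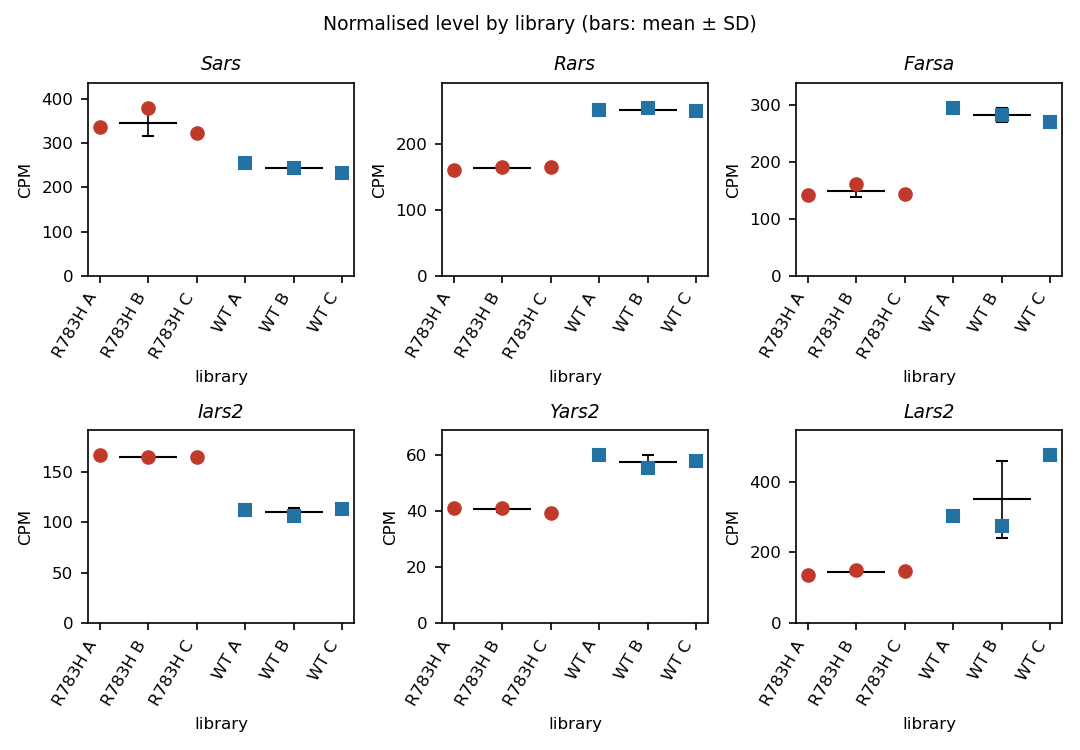
Normalised level in CPM (y axis, from 0) of 6 synthetase genes in each of the 6 libraries (x axis); circles are R783H, squares WT, and bars give the mean ± SD of a group. Sars and Iars2 are higher and Rars, Farsa, Yars2 and Lars2 lower in all R783H libraries, and WT C at 474 CPM stands above the other WT libraries for Lars2.

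The 8 cytosolic genes that were not called had log2 fold changes from -0.10 for Dars to 0.09 for Qars. Besides these they were Gars, Aars, Mars1, Tars, Yars and Eprs. Dars and Eprs had adjusted p values of 0.0546 and 0.176 although their CPM values did not overlap between the groups, and Tars had the smallest change, -0.0044 (SE 0.04). Without R783H B, the number of cytosolic genes called lower was 11 and the number called higher was again 5, the added decreases being Aars, Dars, Gars and Mars1. Calls rose among all genes too: that fit called 4969 higher and 4913 lower of 14311, against 4761 and 4391 of 14199 with all libraries. Aars was the member with the highest mean level in CPM, 946.2 in WT. Its longest transcript shares 1326 nt with Exosc6 on the same strand, and Exosc6 changed by -0.54 (SE 0.06).

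**Figure D3:**
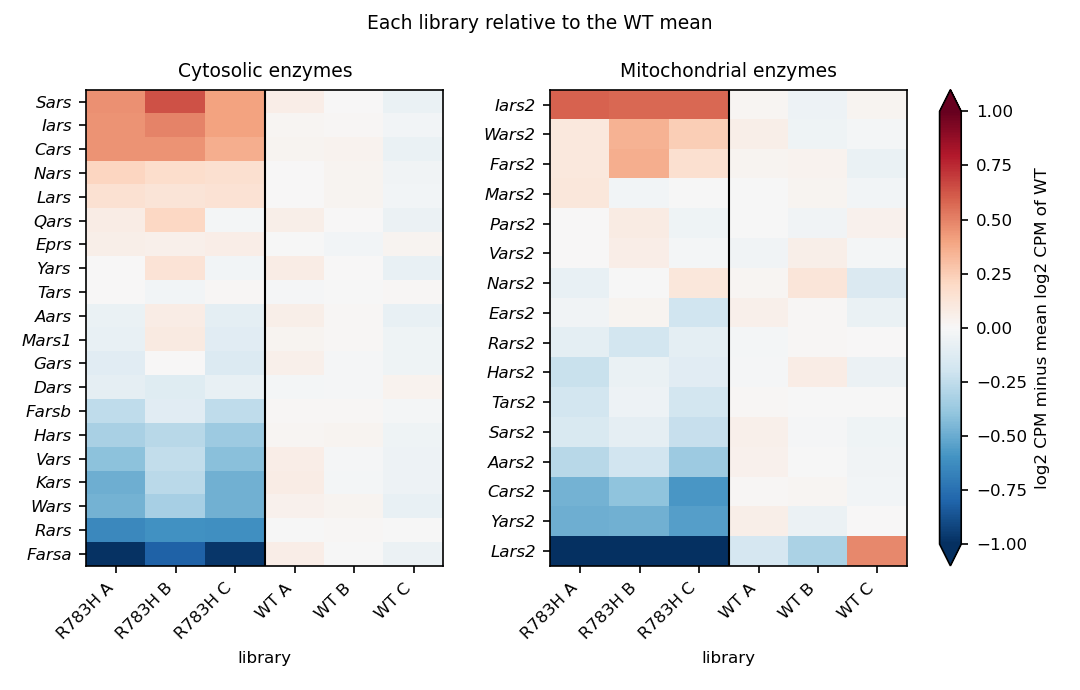
Colour gives log2 CPM of a gene in a library minus its mean log2 CPM in WT, for 20 cytosolic (left) and 16 of 17 mitochondrial (right) genes in rows and the 6 libraries in columns; the scale ends at -1 and 1. Columns of R783H A and C resemble each other, R783H B is paler for most genes that fell and darker for Sars and Iars, and Lars2 in WT C differs from WT A and B.

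The multi-synthetase complex holds the enzymes of Eprs, Iars, Lars, Mars1, Qars, Rars, Kars and Dars on the scaffold proteins Aimp1, Aimp2 and Eef1e1. Of the 8 enzyme genes, 2 were called higher (Iars and Lars) and 2 lower (Rars and Kars). Each is 25% of them, beside 33.5% higher and 30.9% lower among all tested genes. The median log2 fold change of the 8 genes was 0.02. Scaling by library size alone gave 4 higher and 2 lower, and without R783H B there were 2 higher and 4 lower. All tested genes gave 5673 higher and 3603 lower by library size alone, and 4969 higher and 4913 lower without R783H B. Among the 3 scaffold genes Aimp2 fell from 98.8 ± 3.30 CPM in WT to 61.9 ± 6.38 CPM in R783H (SD, n = 3 each), a log2 fold change of -0.68 (SE 0.07) at an adjusted p of 7.27e-06. Eef1e1 fell from 117 ± 1.395 to 86.2 ± 3.72 CPM, a log2 fold change of -0.44 (SE 0.05). Aimp1 was not called, at -0.05 (SE 0.04). Genes of this complex thus did not move in a common direction, while both called scaffold genes were lower.

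Of the cytosolic genes, 13 are known targets of ATF4, and 5 of them were called higher (Sars, Iars, Cars, Nars and Lars) and 2 lower (Wars and Vars), with a median of 0.04. The share called higher was 38.5% and the share called lower 15.4%, beside 33.5% and 30.9% of all tested genes. The 5 genes called higher are all the cytosolic increases. Of the remaining 7 (Dars, Farsa, Farsb, Hars, Kars, Qars and Rars), 0 were called higher and 5 lower, and the median was -0.32. At an unadjusted p under 0.05 by the same edgeR test the higher count was again 0, and 0 by DESeq2, while scaling by library size alone gave 1 higher, Qars, beside 5 lower. Without R783H B the ATF4 targets gave 5 higher and 5 lower, and the remaining genes 0 and 6. With the transcript length and GC offset the counts were 4 and 5 in the former group and 0 and 6 in the latter. All tested genes gave 4969 higher and 4913 lower without R783H B, and 4084 higher and 4885 lower with the offset. The assignment to ATF4 is from general knowledge, and the difference between the groups of genes was not tested.

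ATF4 binds with C/EBP partners at elements whose core can be written TGATGNAA. This string was searched on both strands of RefSeq promoter windows (GRCm38.p6) that run from 250 bases before to 50 bases after a gene's start. Windows were at hand for 27 of the 37 genes, and not for the other 10, among them Cars, Hars, Lars, Nars, Rars, Vars, Wars, Hars2 and Pars2. It was present for 5 of 13 cytosolic genes and 0 of 14 mitochondrial genes, beside 4.51% of all 27025 genes with a window (3.97% of all 32851 windows). The 5 genes are Aars, Gars, Iars, Tars and Yars, all on the ATF4 target list. Their sequences are shown because they are the promoters with this element. Each is written 5′ to 3′ along the gene's strand, with the match in capitals.
Aars, chr8:111033700-111033767, plus strand: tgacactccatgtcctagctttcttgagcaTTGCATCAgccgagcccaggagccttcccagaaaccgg
Gars, chr6:55037941-55038000, plus strand: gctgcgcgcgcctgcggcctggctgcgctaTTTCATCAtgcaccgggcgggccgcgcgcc
Iars, chr13:49682107-49682144, plus strand: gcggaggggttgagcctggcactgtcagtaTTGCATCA
Tars, chr15:11399659-11399703, minus strand: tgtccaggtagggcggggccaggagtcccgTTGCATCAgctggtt
Yars, chr4:129189876-129189913, plus strand: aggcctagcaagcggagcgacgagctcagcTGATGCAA
Matches lie on the opposite strand in Aars, Gars, Iars and Tars and on the gene's strand in Yars. They begin 112, 30 and 15 bases before the annotated start in Aars, Gars and Tars, and 7 and 3 bases after it in Iars and Yars. Aars has another match, TTTCATCA, that begins 9 bases after the start. Of these 5 genes Iars was called higher and the other 4 were not called, with log2 fold changes from -0.08 to 0.04. The windows of Sars, Eprs and Mars1, also on the ATF4 target list, held 0 matches. Of those, Sars was called higher, at 0.50, and Eprs and Mars1 were not called.

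The E-box CACGTG, a palindrome bound by Myc and related factors, was searched in the same windows. It was found for Aars, Farsb, Iars, Tars and Ears2, which is 4 of 13 cytosolic and 1 of 14 mitochondrial genes. Of all 27025 genes with a window 8.09% held it (7.15% of all windows). Aars, Iars and Tars hold both strings.
Iars, chr13:49682031-49682096, plus strand: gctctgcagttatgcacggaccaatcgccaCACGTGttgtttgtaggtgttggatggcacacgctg
Farsb, chr1:78488901-78488966, minus strand: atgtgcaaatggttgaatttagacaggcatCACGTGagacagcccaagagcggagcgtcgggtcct
These windows are shown since the genes moved in opposite directions, Iars by 0.45 and Farsb by -0.21 on the log2 scale. The E-box begins 69 bases before the start in Iars and 39 bases before it in Farsb. A match in a window is a description of letters and not evidence of binding.

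Among the 17 mitochondrial genes 3 were called higher (17.6%) and 8 lower (47.1%), and 6 were not called. Of all tested genes 33.5% were called higher and 30.9% lower. The split of the mitochondrial genes depended on scaling: RLE factors gave 1 higher and 9 lower, and library size alone gave 3 higher and 5 lower. That of all tested genes moved too. It was 4761 higher and 4391 lower as reported, 4561 and 4575 with RLE factors, and 5673 and 3603 by library size alone. When a library was left out, 29.2% to 34.7% of all tested genes were called higher. Of the mitochondrial genes, 1 to 3 were then higher and 5 to 9 lower. Without WT A there were 1 higher and 5 lower, likewise 1 and 5 without WT B, 1 and 6 without WT C or R783H C, 1 and 9 without R783H B and 3 and 5 without R783H A. Summed over these genes the level was 899 to 945 CPM in R783H and 1077 to 1271 CPM in WT, without overlap. Leaving out Lars2 brought the sums to 750.1 to 795 CPM in R783H and 797 to 819 CPM in WT, which were barely apart.

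Iars2, the mitochondrial isoleucyl-tRNA synthetase, had 166, 165 and 165 CPM in R783H against 112, 107 and 113 CPM in WT. The R783H libraries were within 2 CPM of each other and all above WT. Its log2 fold change was 0.58 (SE 0.04) at an adjusted p of 7.72e-07. With the transcript length and GC offset it was 0.40 and still called. The last 2034 nt of its longest transcript, of 5471 nt, lie on the opposite strand of Rab3gap2 exons, and Rab3gap2 rose by 0.32 (SE 0.05). Whether the authors' counting used strand is not given in the sources used here, so reads of the shared stretch may count for either gene.

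The other mitochondrial genes called higher were Fars2 and Wars2, for phenylalanine and tryptophan, by 0.21 (SE 0.08) and 0.24 (SE 0.09), with adjusted p values of 0.0372 and 0.0430. Fars2 lost its call in 8 of 16 alternatives, among them every fit without 1 library except that without R783H A. Wars2, the lowest member at 8.03 ± 0.303 CPM in WT and 9.45 ± 0.769 CPM in R783H, lost it in 11.

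Lars2, the mitochondrial leucyl-tRNA synthetase, showed the largest change of all members. It had 137, 150.1 and 149 CPM in R783H against 302, 273 and 474 CPM in WT. All R783H values were below all WT values, and WT C stood far above WT A and B. The log2 fold change was -1.27 (SE 0.16), or 2.41-fold higher in WT at an adjusted p of 3.82e-05. Without WT C it was -0.99 (adjusted p 1.53e-06), which is just under 2-fold. A stretch of 72 nt of its transcript (3278 to 3349 of 3894 nt) shared 98.6% identity with the non-coding gene Gm15564. Matches this short were read for Lars2 alone, and not for the other members. WT C also held 119 counts of Rmrp, a small RNA of ribosomal RNA processing, against 6 and 17 in WT A and B. In R783H A, B and C Rmrp had 9, 9 and 25 counts, while Lars2 was not raised in R783H C. The mitochondrial ribosomal RNAs mt-Rnr1 and mt-Rnr2 had log2 fold changes of -1.47 (SE 0.06) and -1.19 (SE 0.08). In WT A, B and C mt-Rnr1 had 198, 203 and 208 CPM and mt-Rnr2 had 655, 713 and 751 CPM. Neither stood as far above WT A and B in WT C as Lars2 did. The part of such RNAs in the Lars2 counts was not tested, and Rmrp and Gm15564 were chosen after their values were seen.

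Yars2, for tyrosine, had 41.2, 41.3 and 39.4 CPM in R783H against 59.95, 55.3 and 57.8 CPM in WT, which gave a log2 fold change of -0.50 (SE 0.05) at an adjusted p of 8.52e-06. Cars2, for cysteine, had 60.6, 63.4 and 56.0 CPM against 84.7, 84.9 and 82.1 CPM, a log2 fold change of -0.48 (SE 0.05) at an adjusted p of 1.57e-05. The groups were apart for both genes. Exons of Cars2 overlap those of Naxd on the opposite strand, which rose by 0.56 (SE 0.06). Aars2, for alanine, fell by 0.28 (SE 0.05) on the log2 scale. Sars2, Tars2 and Rars2 were called lower with log2 fold changes of -0.16, -0.14 and -0.13, and their adjusted p values of 0.0294, 0.0326 and 0.0454 did not hold in 7, 7 and 12 of 16 alternatives. With the transcript length and GC offset Sars2 was 0.01 and not called. Hars2, Ears2, Nars2, Pars2, Vars2 and Mars2 were not called, with log2 fold changes from -0.14 (SE 0.06) for Hars2 to 0.03 (SE 0.06) for Mars2. With the transcript length and GC offset 3 of these were called lower, Mars2 at -0.41, Ears2 at -0.21 and Hars2 at -0.18, so that Mars2 turned sign. That offset took Mars2 at its annotated length of 11294 nt. Hars2 was also called lower with RLE factors (-0.16) and without R783H B (-0.20). Hars2 and Hars begin next to each other on opposite strands, and their longest transcripts share 195 nt.

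Cytosolic and mitochondrial genes were paired for 15 amino acids, which makes 16 gene pairs, since Fars2 pairs with both Farsa and Farsb. Glutamate and proline also have separate mitochondrial genes, Ears2 and Pars2, but share Eprs in the cytosol and were left out of the pairs. None of Eprs, Ears2 and Pars2 was called. Both genes were called in 8 of these pairs, 2 of them in the same direction and 6 in opposite directions. Isoleucine showed the same direction upward, with 0.45 for Iars and 0.58 for Iars2. Arginine showed it downward, with -0.62 for Rars and -0.13 for Rars2, the latter near the threshold. Cysteine differed most clearly, as Cars changed by 0.42 and Cars2 by -0.48, both without overlap of the groups and both called under all 16 alternatives. Leucine (0.14 for Lars, -1.27 for Lars2), serine (0.50 for Sars, -0.16 for Sars2), tryptophan (-0.43 for Wars, 0.24 for Wars2) and phenylalanine (-0.92 for Farsa and -0.21 for Farsb, 0.21 for Fars2) also differed in sign, but in each at least 1 of the genes lost its call in some alternative.

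Levels were compared between genes as CPM per kilobase of the longest transcript. The median cytosolic gene stood at 100.1 CPM per kb in WT and 97.0 in R783H, and the median mitochondrial gene at 15.8 and 14.4. Every cytosolic gene was above every mitochondrial gene in both groups except Lars2, at 89.8 ± 27.8 CPM per kb in WT, which overlapped the range of the cytosolic genes, and at 37.3 ± 1.85 in R783H, below all of them. Kars was highest, at 330.4 ± 15 CPM per kb in WT and 249 ± 21.6 in R783H (SD, n = 3 each). Next in WT came Gars (183 ± 6.40), Aars (165 ± 7.82) and Nars (159 ± 3.16), of which Aars and Nars lay within their spread of each other. In R783H Nars (181 ± 3.62) and Gars (173 ± 9.14) followed Kars, with a difference between them below the SD of Gars. Farsa moved from 84.7 ± 3.65 to 44.6 ± 3.09 CPM per kb and became the lowest cytosolic gene, beside Wars at 45.6 ± 2.73. Sars moved from 68.4 ± 3.07 to 96.8 ± 8.29. At the low end stood Wars2, at 1.82 ± 0.0687 CPM per kb in WT. Longest transcripts may not be the ones used in these cells, and Mars2 was divided by its RefSeq span of 2882 nt because its annotated transcript of 11294 nt runs beyond it.

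**Figure D4:**
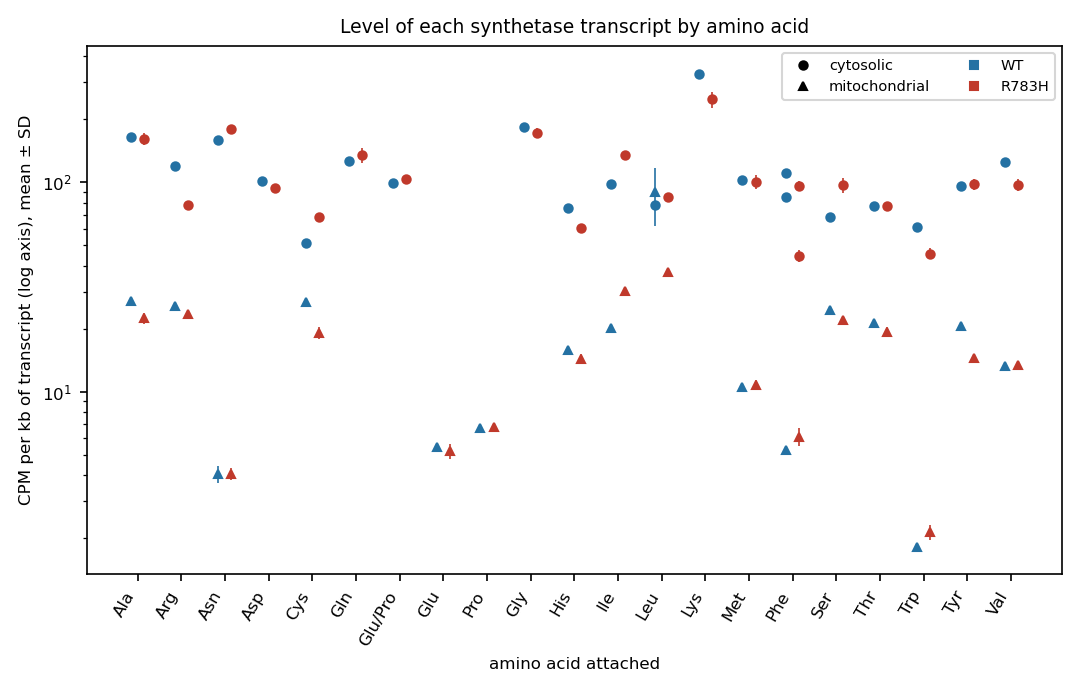
Mean level of 20 cytosolic and 16 of 17 mitochondrial synthetase genes in CPM per kb of transcript (y axis, log scale; bars: SD of 3 libraries) by the amino acid it loads (x axis), with circles for cytosolic and triangles for mitochondrial enzymes, blue for WT and red for R783H. Cytosolic genes lie between 44.6 and 330.4 and mitochondrial genes between 1.82 and 37.3, apart from Lars2 in WT at 89.8.

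Partner genes of the synthetases were read from lists written from general knowledge. Of 23 other ATF4 targets 12 were called higher (52.2%) and 6 lower (26.1%), beside 33.5% and 30.9% of all tested genes. The median of these targets was 0.14. Nupr1 (1.65, SE 0.10), Pycr1 (0.93, SE 0.06) and Chac1 (0.83, SE 0.09) had the largest log2 fold changes, a stress-induced nuclear protein, an enzyme of proline synthesis and an enzyme of glutathione breakdown. Atf4 mRNA averaged 187 ± 6.13 CPM in R783H against 151 ± 6.22 CPM in WT (SD, n = 3 each), a log2 fold change of 0.31 (SE 0.05). Asns, the asparagine synthetase and a classic target, was not called, at 0.08 (SE 0.05), and Slc7a11, a cystine transporter, was called lower, at -0.67 (SE 0.10). Atf4, Asns and Slc7a11 were picked from the list after their values were seen. Without 1 library the list gave 9 to 12 higher and 5 to 6 lower. Ddit3, one of the ATF4 targets called higher (0.78, SE 0.09), has exons that overlap those of Mars1 on the opposite strand, and Mars1 was not called.

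Of 13 genes of tRNA delivery and end processing 2 were called higher (15.4%) and 9 lower (69.2%), beside 33.5% and 30.9% of all tested genes. The median of the 13 genes was -0.28. The largest changes were in Eef1d (-0.88, SE 0.07), an exchange factor subunit for the elongation factor that carries charged tRNA, Eif2s1 (-0.57, SE 0.04), a subunit of the initiation factor that carries initiator tRNA, and Trnt1 (-0.54, SE 0.07), which adds the CCA end. Leaving out each library in turn gave 9 lower every time. Of 7 trans-editing and synthetase-like genes 2 were called higher (28.6%) and 5 lower (71.4%), beside the same shares of all tested genes. The number lower was 3 when scaled by library size alone and also 3 without R783H A or WT B. Tarsl2, a second threonyl-tRNA synthetase-like gene, fell by 0.60 (SE 0.12) on the log2 scale. Pstk and Sepsecs, which act in succession to make selenocysteinyl-tRNA, changed by -0.42 (SE 0.07) and 0.37 (SE 0.08).

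Of 16 partners of charging and translation in the mitochondrion 1 was called higher (6.25%) and 6 lower (37.5%), beside 33.5% and 30.9% of all tested genes. The median of these partners was -0.14. Tufm, the mitochondrial elongation factor Tu, changed by -0.49 (SE 0.07), Trmu, which modifies tRNA, by -0.45 (SE 0.15) at a mean of 6.98 CPM in WT, and Tsfm, the exchange factor of Tufm, by -0.31 (SE 0.05). The call of Trmu was lost without R783H C (log2 fold change -0.34) and without WT A (-0.32). Qrsl1, a subunit of the amidotransferase that makes mitochondrial glutaminyl-tRNA, changed by -0.27 (SE 0.08), while its partner subunits Gatb and Gatc were not called, at 0.01 (SE 0.07) and 0.11 (SE 0.08); these 3 were picked after their values were seen. Eef1e1 and Xpot stand in more than 1 of the lists.

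**Figure D5:**
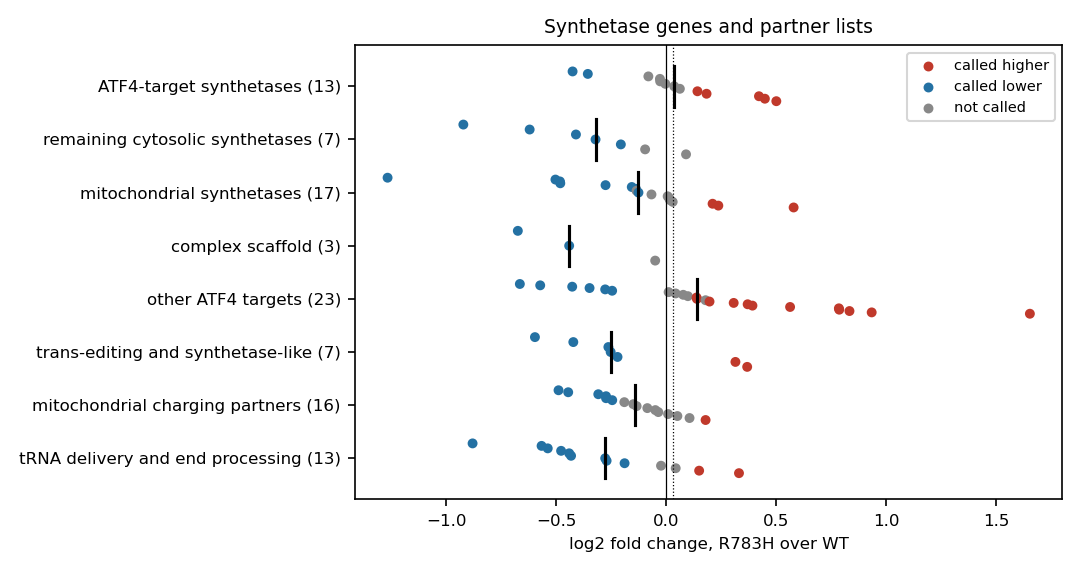
Log2 fold change of R783H over WT (x axis) for each gene of the synthetase groups and partner lists (rows, number tested in parentheses); red points were called higher, blue lower and grey not called, black bars are list medians and the dotted line is the median of all tested genes (0.03). The median is 0.04 for ATF4-target synthetases, -0.32 for the remaining cytosolic ones and -0.13 for mitochondrial ones.

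Each member was also read with an offset that takes out any trend of fold change with transcript length and GC content. Members had longest transcripts of 1868 to 11294 nt, with a median of 3341 nt against 3364 nt for all tested genes. Under the offset 4 cytosolic genes were called higher and 11 lower, Lars no longer being called and Aars, Dars, Eprs and Tars being called lower, of which Eprs turned sign to -0.13. Of the mitochondrial genes 2 were called higher and 9 lower. The split of all genes moved toward lower as well, with 4084 called higher (31.3%) and 4885 lower of 13067 tested under the offset. Of the 23 called members 17 kept their call and direction under all 16 alternatives at an adjusted p of at most 0.0295. They include Cars, Iars, Nars, Sars and Iars2 on the higher side and Farsa, Farsb, Hars, Kars, Rars, Vars, Wars, Aars2, Cars2, Lars2 and Yars2 on the lower.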

How the data were processed

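The authors deposited 1 table of raw read counts per gene, taken as counts because its values are whole numbers with different library totals. The submitters' processing notes name the build mm10 and the tools CASAVA 1.4, HISAT2 and SAMtools; the counting tool, annotation and use of strand are not given in the sources used here. Symbols came from RefSeq (GRCm38.p6, 25275 of 27179 identifiers) and transcripts from GENCODE M21. In R 4.3.3, edgeR 4.0.16 kept 14199 genes (filterByExpr, minimum count 10, minimum total 15), scaled libraries with TMM and tested group as the single term by quasi-likelihood and adjusted p-values (Benjamini-Hochberg) over every tested gene. Genes with an adjusted p under 0.05 are called. The SE is the log2 fold change divided by the square root of F. Steps were tested on simulated data. Alternatives also used limma 3.58.1 and DESeq2 1.42.0. Shared exon sequence was searched with BLAST 2.17.0 (98% identity over 100 nt, and for Lars2 95% over 50 nt). Against the floor of 3 counts, 0.103 to 0.144 CPM, all members were well counted; counting error alone understates the uncertainty. Members with values in each library were the called ones with a log2 change of at least 0.3 in size, and up to 3 called genes of largest change were named per partner list. Members and lists were chosen with earlier results of these data known. 1 mitochondrial member is counted but not reported here by name.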

Additional observations from a re-analysis of the deposited data

How the results depend on the processing

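All results were recomputed under 16 alternatives, 6 of which left out 1 library. Over the 37 members these gave 592 fold changes, of which 527 kept their side of the threshold, 46 lost the call and 16 gained it in the same direction. Among the 527, 29 differed in sign from the reported value and were called in neither fit. Another 3 turned sign with a call in 1 of the fits, all with the transcript length and GC offset: Sars2 to 0.0128 (not called), Eprs to -0.1304 and Mars2 to -0.409 (both called lower). Under that offset Trim71 also turned sign, to -0.2738. Scaling by library size alone turned the cytosolic median to 0.0526 and the median of the partner genes to 0.0128, and it gave 5 mitochondrial genes called lower. The number of mitochondrial genes called higher was 1 with RLE factors, with DESeq2 and in libraries thinned to the smallest total, where 7 were called in all. The offset gave 11 cytosolic genes called lower, beside 4885 of all 13067 genes tested with it. Over the fits without 1 library, cytosolic genes called lower ran from 7 to 11, mitochondrial genes called from 6 to 10, those called higher from 1 to 3 and those called lower from 5 to 9. Among all tested genes those called lower ran from 3906 to 4913 over the same fits. The causes were not tested; dropping a library leaves fewer samples. Deviations of same-letter libraries from their group means correlated at -0.175, 0.028 and 0.204, and not every library correlated best with its own letter. With 3 libraries per group, each centred on its group mean, these correlations cannot decide whether the letters mark a shared batch. With the letter as a block 12 cytosolic, 9 mitochondrial and 44 partner genes and 9260 genes in all were called. In libraries thinned to the smallest total Fars2, Rars2, Sars2 and Wars2 lost their calls; Wars2 had 169 to 289 counts per library.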
